A study of Mus musculus with 3 samples.

Results

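The 35 genes described here make sterols and fatty acids or control the sterol regulatory element binding proteins (SREBPs), and they were listed by name for their place in the pathway, with earlier results of these data known, out of 24170 genes in the files. All 35 were found. They comprise 18 enzymes of the sterol arm, from acetyl-CoA to cholesterol, 12 genes of the fatty acid arm and 5 regulators. Messenger RNA was measured in granulosa cells, the somatic cells around the oocyte, of wild type C57BL/6 female mice on postnatal days 21 to 28. Every mouse had received 4 IU of equine chorionic gonadotropin (eCG) for follicle growth; the 0 h group was taken before 5 IU of human chorionic gonadotropin (hCG), and the other groups 4 h and 12 h after it. RNA came from 3 mice per time, but 1 library stands for each time, so no difference below has a replicate check and no test was possible.

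SREBPs are transcription factors anchored in the endoplasmic reticulum. When membrane sterol is low, the escort protein SCAP carries them to the Golgi, where proteases release the active domain; INSIG proteins hold SCAP back when sterol is plentiful. SREBP2 mainly drives sterol and SREBP1 mainly fatty acid genes. In granulosa cells that luteinize, cholesterol is the substrate for progesterone.

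Levels are the deposited FPKM (fragment counts divided by transcript length and by depth), summed over the RefSeq isoforms of a gene, so levels are comparable between genes per length. The spacing of low values placed depth at 13300000, 11900000 and 11600000 fragments at 0, 4 and 12 h. With 200 bases taken off the transcript length, as fitted with the depth, 1 fragment on a 2 kb transcript is worth 0.0418, 0.0467 and 0.0479 FPKM. The intervals given are the authors' bounds of the estimate within 1 library and do not cover the spread between mice. A call, higher or lower, needed a ratio of 2 or more after 1 FPKM was added to both values, and a level of 1 FPKM or more in either library. The granulosa markers Inha (6986, 7163 and 3742 FPKM at 0, 4 and 12 h), Foxl2 (149, 44.3 and 102) and Fshr (133, 15.5 and 32.1) were present at each time. The libraries also held transcripts of other cells: theca and stroma markers summed to 298, 625 and 413 FPKM and oocyte markers to 231, 182 and 323. Of the theca and stroma sums Mgp alone held 70.9, 371 and 191 FPKM, so their course is mostly that of 1 gene. In bulk RNA, fewer cells of a type and less RNA per cell cannot be told apart.

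Promoters are shown first because SREBPs act there together with the factor NF-Y, whose known letters are CCAAT. RefSeq promoters of GRCm38.p6, from 250 bases before to 50 after a start site, were at hand for 29 of the 35 genes. On either strand, CCAAT stood in 93.3% of the 15 sterol genes with a promoter (14 genes), in 6 of 9 fatty acid genes and in 4 of 5 regulators, against 41.1% of all 27025 genes of the table. Genes with several promoters have more chances of a match, and the 5 regulators have 10 promoters. Counted per promoter the shares were 77.8% for sterol genes, 54.5% for fatty acid genes and 50% for regulators, against 37.4% of all promoters. The SREBP element in the form TCACNCCAC was found in 1 member, Hmgcs1, and in 1.44% of all genes, and the E-box form TCACGTGA in no member and in 1.12% of all genes. Allowing 1 mismatch to TCACCCCAC, a looser search added after the first result was seen, matched 7 of 29 members (24.1%) and 11.1% of all genes. A match describes letters and does not show binding. The 250 bases before the start site follow for 4 members that hold the looser match and whose levels took different courses, picked after these were seen: Hmgcs1 and Hsd17b7 of the sterol arm, the regulator Srebf2 and Gpam of the fatty acid arm. Capitals mark the looser match and CCAAT, which reads ATTGG when on the other strand.
Hmgcs1 promoter, chr13:119690101-119690350, strand plus: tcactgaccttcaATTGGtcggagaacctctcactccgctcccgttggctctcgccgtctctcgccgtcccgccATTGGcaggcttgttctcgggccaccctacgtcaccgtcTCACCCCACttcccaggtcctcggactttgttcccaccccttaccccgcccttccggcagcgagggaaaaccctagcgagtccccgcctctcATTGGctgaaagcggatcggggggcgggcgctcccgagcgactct
Hsd17b7 promoter, chr1:169969206-169969455, strand minus: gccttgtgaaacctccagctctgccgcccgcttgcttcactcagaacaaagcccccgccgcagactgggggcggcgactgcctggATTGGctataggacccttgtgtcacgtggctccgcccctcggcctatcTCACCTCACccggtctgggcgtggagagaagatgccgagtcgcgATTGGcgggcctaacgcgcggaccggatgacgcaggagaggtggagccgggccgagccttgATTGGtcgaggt
Srebf2 promoter, chr15:82147019-82147268, strand plus: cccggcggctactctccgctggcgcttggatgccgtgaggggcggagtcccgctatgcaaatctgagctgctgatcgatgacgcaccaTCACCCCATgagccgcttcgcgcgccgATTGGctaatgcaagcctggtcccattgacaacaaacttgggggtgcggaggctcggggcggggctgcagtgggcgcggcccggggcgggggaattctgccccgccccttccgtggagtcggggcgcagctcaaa
Gpam promoter, chr19:55127239-55127488, strand minus: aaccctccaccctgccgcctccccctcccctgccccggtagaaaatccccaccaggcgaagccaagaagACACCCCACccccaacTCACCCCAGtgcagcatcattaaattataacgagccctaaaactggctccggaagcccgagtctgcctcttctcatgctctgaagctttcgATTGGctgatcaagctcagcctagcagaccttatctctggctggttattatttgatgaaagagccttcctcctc

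The Hmgcs1 match is TCACCCCAC, beginning 137 bases before the start site, and 3 CCAAT boxes lie around it. Hsd17b7 carries TCACCTCAC at -117 and 3 CCAAT boxes, Srebf2 carries TCACCCCAT at -162 and Gpam carries TCACCCCAG at -165 and ACACCCCAC at -181. Of these 4 genes Hsd17b7 was called higher at 4 h and Gpam lower, and Hmgcs1 and Srebf2 were not called.

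The comparison of 4 h with 0 h asked how the arms stood in the early response to the ovulatory signal. Of the 10 late sterol enzymes, which turn squalene into cholesterol, 6 were called higher at 4 h. None of the 8 early enzymes, from acetyl-CoA to squalene, was called higher, and the fatty acid arm was split. In the sterol arm 6 of 18 genes (33.3%) were called higher and 1 was called lower, beside 10.2% higher and 7.03% lower of the 13237 genes tested. All 6 belong to the 10 late enzymes, whose median log2 fold was 1.10. The 8 early enzymes had 0 higher, 1 lower and a median of -0.03, and the median of all genes was -0.01. The division into early and late steps follows the pathway but was made after the values were seen. The fatty acid arm had 2 of 12 genes higher, 2 lower and a median of -0.09. The sterol median, 0.13 over both stages, exceeded it by 0.22, a smaller gap than that between the stages of the sterol arm.

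**Figure D1:**
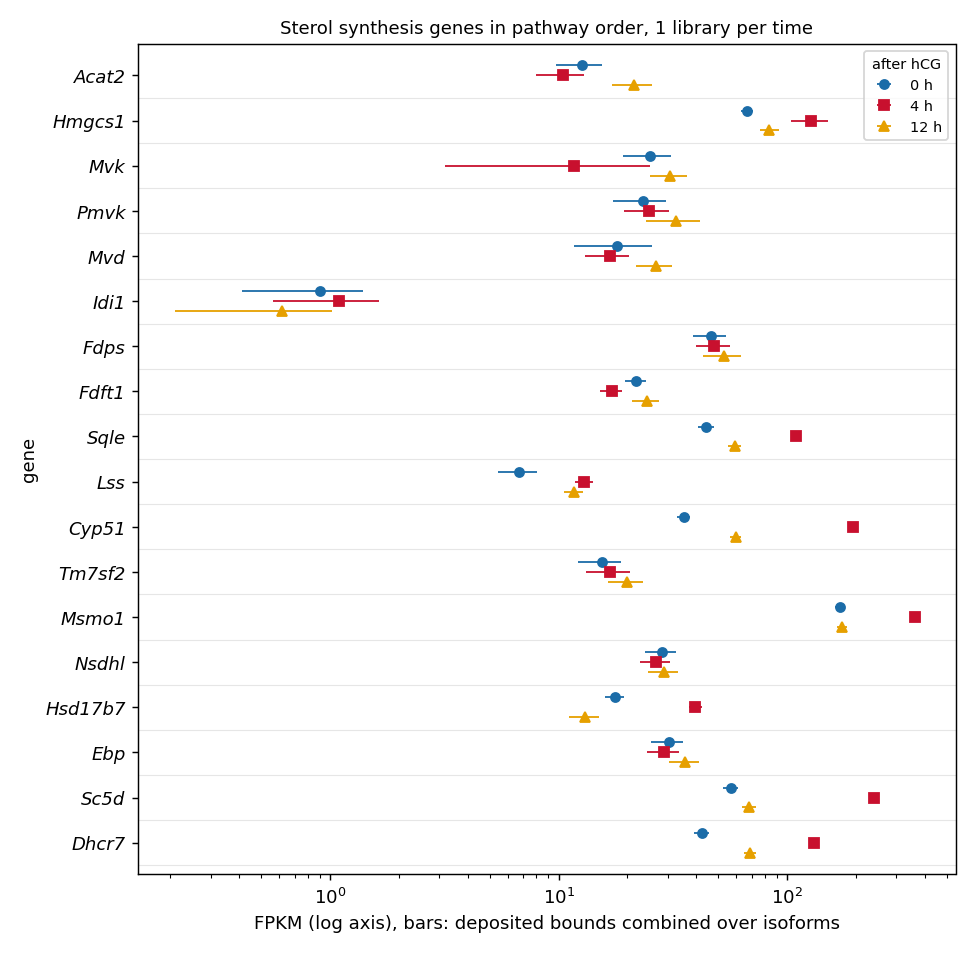
FPKM of the 18 sterol genes in pathway order (log axis) in the 0 h, 4 h and 12 h libraries; bars are the deposited bounds. Cyp51, Sc5d, Dhcr7, Sqle, Msmo1 and Hsd17b7 stand to the right at 4 h, while Idi1 lies near 1 FPKM throughout.

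Cyp51, the lanosterol demethylase, was at 35.4 FPKM at 0 h (33.0 to 37.8), 195 at 4 h (189 to 201) and 59.7 at 12 h (56.6 to 62.9), a 5.51-fold ratio of 4 h to 0 h. Its 12 h value stayed 1.69-fold above 0 h with intervals apart. Sc5d, the desaturase of the last steps, was at 56.7, 241 and 68.1 FPKM, and Dhcr7, the reductase that can finish cholesterol, at 42.4, 131 and 69.1. For each of these genes the 4 h library was the highest and its interval overlapped neither of the others. Sqle, squalene epoxidase and the entry to this stretch, was at 44.4, 109 and 59.0 FPKM. Msmo1, the methylsterol monooxygenase, had the highest level of the sterol arm in every library, at 171, 363 and 175 FPKM. Its 0 h and 12 h intervals overlapped (163 to 180 and 166 to 183). Hsd17b7, the ketoreductase of sterol demethylation, was at 17.7, 39.8 and 13.1 FPKM and was the late gene that ended below its starting level. Log2 folds from 0 h to 4 h of these 6 genes ran from 1.08 (Msmo1) to 2.43 (Cyp51).

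The other 4 late enzymes were not called. Lss, lanosterol synthase, was at 6.72, 13.0 and 11.7 FPKM, a log2 fold of 0.86 at 4 h with intervals apart. The sterol reductase Tm7sf2 was at 15.4, 16.9 and 19.9 FPKM, the dehydrogenase Nsdhl at 28.3, 26.7 and 29.0 and the isomerase Ebp at 30.3, 29.0 and 35.8. In these 3 genes the 0 h and 4 h intervals overlapped, so the calls did not extend to the whole stretch. Sqle, Cyp51, Msmo1 and Sc5d, which are the oxygen-consuming oxidases of the route, were all called, and Nsdhl and Hsd17b7, which act beside Msmo1, differed from each other. The grouping by oxygen use was made after the values were seen.

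Among the early enzymes Hmgcs1, which makes HMG-CoA, was at 66.9 FPKM at 0 h (63.0 to 70.8), 127 at 4 h (104 to 152) and 83.5 at 12 h (76.1 to 92.3). It was the highest early gene in every library and came close to a call (log2 fold 0.91). Mvk, mevalonate kinase, went the other way, at 25.1 FPKM (19.2 to 30.9), 11.7 (3.20 to 25.2) and 30.8 (25.3 to 36.3), and its log2 fold of -1.03 was the 1 lower call of the sterol arm. Its 4 h interval overlaps the 0 h one, and the call was lost when intervals had to lie apart. The thiolase Acat2 was at 12.6, 10.4 and 21.4 FPKM, phosphomevalonate kinase Pmvk at 23.3, 24.9 and 32.8 and the decarboxylase Mvd at 18.1, 16.8 and 26.6. Fdps, farnesyl diphosphate synthase, was at 46.4, 48.2 and 52.9 FPKM, and Fdft1, squalene synthase, at 21.9, 17.1 and 24.3. None of these 5 was called, and all 5 had their highest value at 12 h. Idi1, the isopentenyl diphosphate isomerase, was at 0.901, 1.10 and 0.617 FPKM with overlapping intervals, far under its pathway neighbours. Fdft1 shares 774 bases of exon with the lysosomal protease gene Ctsb on the opposite strand, at 102, 145 and 95.3 FPKM. Cyp51 shares 166 bases with Akap9 (10.1, 9.75 and 9.87 FPKM). The strand setting is not known here, so the reads of such pairs may not be separated, and the values of these and of the other members whose exons overlap another gene (12 of 35 in all) are uncertain to that extent.

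Among the regulators, 1 was called higher at 4 h (Insig1) and 1 lower (Scap). Insig1, which retains SCAP and is itself an SREBP target, was at 39.0 FPKM (35.7 to 42.3), 90.6 (85.6 to 95.7) and 44.9 (41.4 to 48.4), and was called higher at 4 h (log2 fold 1.20). Srebf2, which encodes SREBP2, was at 32.7, 62.4 and 27.3 FPKM. It missed the call at 4 h (0.91) and was called lower from 4 h to 12 h (-1.16). Scap was at 149 FPKM (142 to 157), 73.5 (68.8 to 78.1) and 118 (111 to 126), with 3 separate intervals and a log2 fold of -1.01 at 4 h, at the edge of the rule. Srebf1, which encodes SREBP1, was at 28.1, 31.5 and 28.2 FPKM, with overlapping intervals. Insig2 was at 16.3, 24.6 and 15.7 FPKM, and its 4 h interval (7.16 to 59.6) was too wide to place it. At 4 h Srebf2 stood 1.91-fold and Srebf1 1.12-fold above 0 h as deposited. With libraries brought to equal sums their log2 folds were 0.61 and -0.14, so the sign for Srebf1 depended on the scale.

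**Figure D2:**
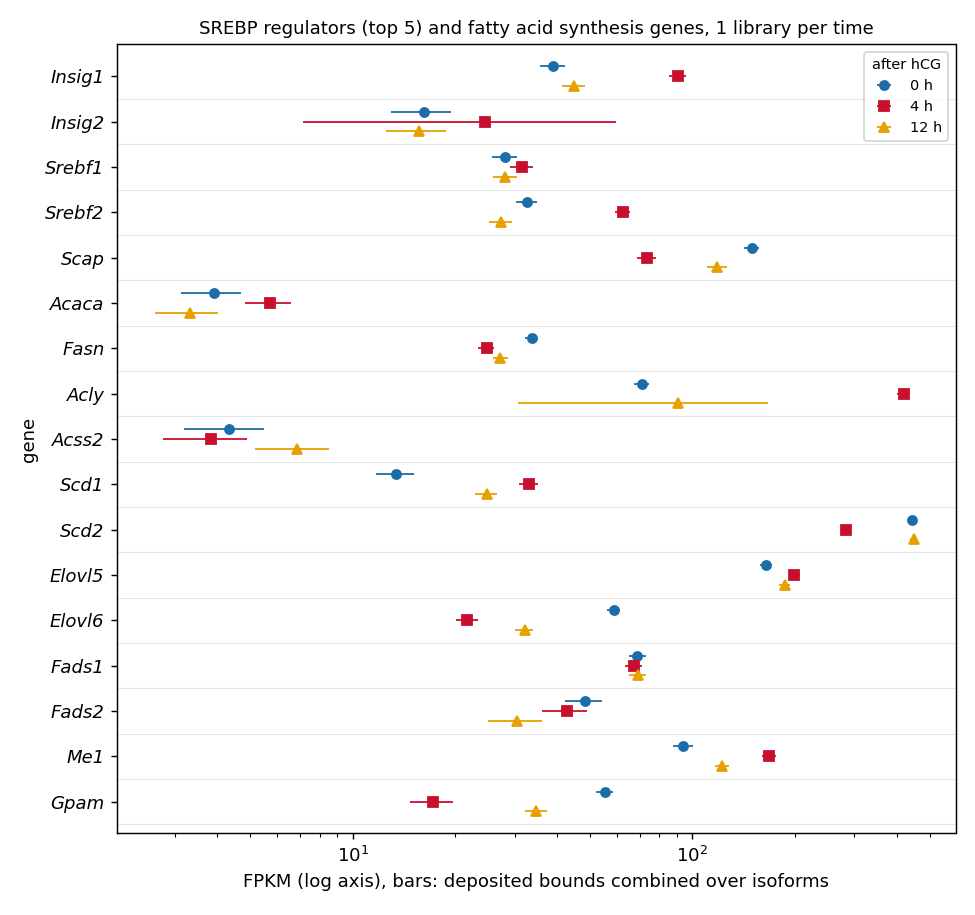
FPKM of the 5 regulators and the 12 fatty acid genes (log axis) in the 3 libraries; bars are the deposited bounds. Acly stands far to the right at 4 h, Elovl6 and Gpam to the left, and Fads1 hardly differs; the 12 h bar of Acly is wide.

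In the fatty acid arm Acly and Scd1 were called higher at 4 h, and Gpam and Elovl6 lower. Acly, ATP citrate lyase, which makes cytosolic acetyl-CoA for both arms, was at 71.1 FPKM at 0 h (67.5 to 74.8), 420 at 4 h (402 to 437) and 90.6 at 12 h (30.7 to 167). Its ratio of 4 h to 0 h, 5.90-fold, was above that of every other member for summed isoforms. On its main isoform alone the log2 fold was 1.93 instead of 2.54, still a higher call but below Cyp51 (2.43) and Sc5d (2.07). Scd1, a desaturase that makes monounsaturated fatty acids, was at 13.4, 33.0 and 24.8 FPKM and was the other higher call (log2 fold 1.24). Gpam, the acyltransferase that starts glycerolipid synthesis, was at 55.2 FPKM (51.9 to 58.4), 17.3 (14.7 to 19.8) and 34.7 (32.1 to 37.3). Elovl6, the elongase acting on palmitate, was at 58.7, 21.7 and 32.1 FPKM. Both were called lower at 4 h (-1.62 and -1.39), their 3 intervals lay apart, and both were still below 0 h at 12 h.

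The committed enzymes of fatty acid synthesis were not called. Acaca, acetyl-CoA carboxylase, was at 3.91, 5.70 and 3.33 FPKM and Fasn, the fatty acid synthase, at 33.7, 24.8 and 27.2, so that at 4 h they lay on opposite sides of their 0 h values. The second acetyl-CoA source Acss2 was at 4.33, 3.82 and 6.84 FPKM, and Me1, the malic enzyme that supplies NADPH, at 93.8, 168 and 122 (log2 fold 0.84 at 4 h). Scd2, the main desaturase transcript here, was at 444 FPKM (432 to 456), 284 (276 to 292) and 448 (436 to 460): the paralogs Scd1 and Scd2 differed in direction at 4 h, and Scd2 was the more abundant in each library. The elongase Elovl5 was at 165, 200 and 187 FPKM and the desaturases Fads1 and Fads2 of polyunsaturated fatty acids at 68.9, 67.3 and 69.1 and at 48.2, 42.7 and 30.6. Fads1 had 3 overlapping intervals.

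**Figure D3:**
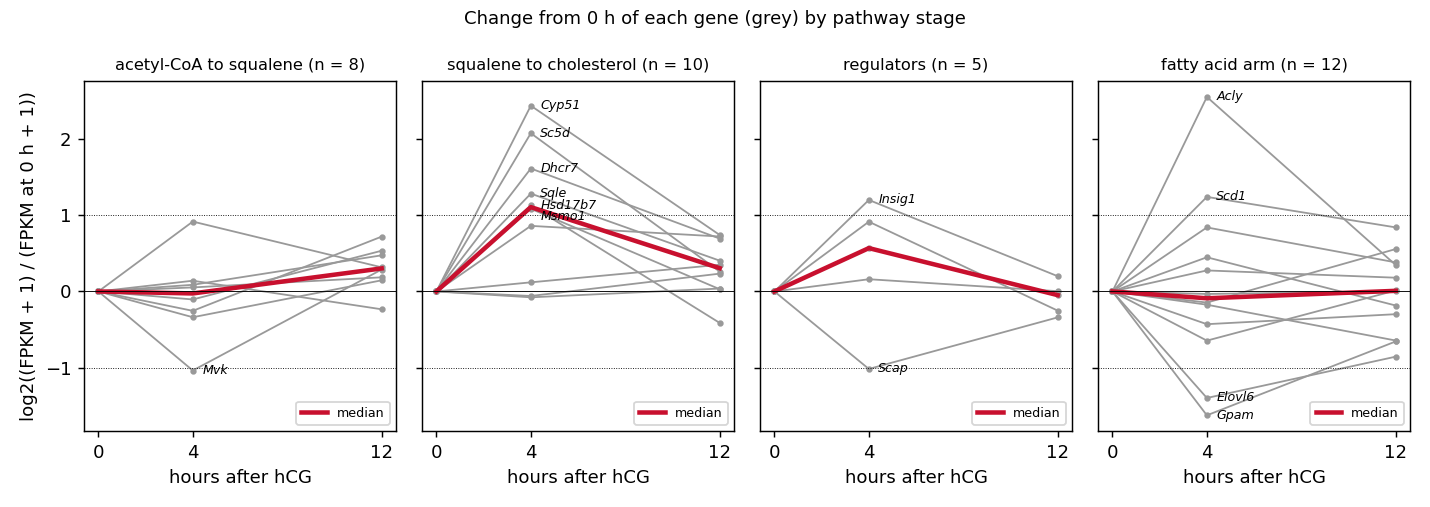
Log2 change from 0 h of each gene (grey) over hours after hCG in the 4 gene groups, with the group's median in red and dotted lines at the 2-fold rule; genes past it at 4 h are named. The median of the squalene to cholesterol group is 1.10 at 4 h, and those of the acetyl-CoA to squalene and fatty acid groups lie near 0.

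In summed level the late sterol enzymes were at 449, 1166 and 540 FPKM and the early ones at 215, 257 and 273. The sterol arm therefore made up 0.165%, 0.304% and 0.211% of all protein-coding FPKM. The fatty acid arm summed to 1060, 1288 and 1076 FPKM, or 0.264%, 0.275% and 0.279%, and Scd2 alone held 444, 284 and 448 of it. At 4 h the sterol arm was the larger sum, and at 0 h and 12 h the fatty acid arm was. This change of order rested on Scd2. Without it the fatty acid arm summed to 616, 1004 and 628 FPKM, below the sterol arm's 664, 1423 and 813 in every library.

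From 4 h to 12 h, around the time of ovulation, 4 of the 10 late sterol genes were called lower and 6 were not called. Of the 6 sterol genes called higher at 4 h, 4 were called lower again: Sc5d (log2 fold -1.81), Cyp51 (-1.69), Hsd17b7 (-1.54) and Msmo1 (-1.05). Sqle (-0.88) and Dhcr7 (-0.92) missed the rule. Mvk was the 1 gene called higher (1.32), so the sterol arm had 1 of 18 higher and 4 lower, beside 4.83% higher and 7.88% lower of 13238 genes. In the fatty acid arm Acly was called lower (-2.20) and none of 12 was called higher, with Gpam just under the rule (0.97). Among regulators Srebf2 was called lower, and Insig1, at 0.496 of its 4 h level before the added FPKM, fell just short of the rule. The medians were -0.90 for the late and 0.43 for the early sterol enzymes, -0.03 for the fatty acid arm and 0.01 for all genes. This comparison and the first share the 4 h library, so their values are not independent.

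Between 0 h and 12 h none of the 34 members tested was called in either direction, beside 3.16% higher and 2.55% lower of 13023 genes; Idi1 was under the floor. Small differences ran mostly one way in the sterol arm: 16 of 18 genes were above their 0 h value, Idi1 and Hsd17b7 being the exceptions. The median log2 fold of the 17 tested was 0.32, against -0.02 for all genes. Of the 16, Acat2, Hmgcs1, Sqle, Lss, Cyp51, Sc5d and Dhcr7 had 0 h and 12 h intervals apart, and in the rest these overlapped. The share of all genes with such intervals apart was not counted, and Fasn, Elovl5 and Me1 of the fatty acid arm had them apart too. The separation is therefore not read as particular to the sterol arm. In the fatty acid arm 7 of 12 were above and the median was 0.01, so the arms' medians differed by 0.31. The largest folds were those of Cyp51 (0.74), Acat2 (0.72), Lss (0.72) and Dhcr7 (0.69) in the sterol arm, whose 0 h and 12 h intervals lay apart, and Scd1 (0.84) and Elovl6 (-0.85) in the fatty acid arm.

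The scale bears on these counts. The sum of all FPKM was 501256, 621173 and 472655 in the 3 libraries. With libraries brought to equal sums the median of all genes shifted by -0.28 from 0 h to 4 h and by 0.36 from 4 h to 12 h. The share of higher calls among all calls then went from 59.3% to 36.7% and from 38.0% to 70.7%; with equal protein-coding sums it was 42.5% and 62.0%. On equal sums Cyp51, Sc5d and Dhcr7 were still called higher at 4 h (log2 folds 2.12, 1.76 and 1.30), as was Acly (2.24), while Sqle (0.97), Msmo1 (0.77), Hsd17b7 (0.83), Insig1 (0.89) and Scd1 (0.94) missed the rule, and Mvk, Gpam, Elovl6 and Scap were still called lower. Relative to the median of all genes, the late sterol median was 1.11 higher as deposited and 1.09 higher on equal sums, and that of the fatty acid arm was -0.08 and -0.07. Scaling multiplies all genes of a library by the same factor. These gaps could therefore hardly change, and their likeness is no separate check. From 4 h to 12 h Scap (1.06), Gpam (1.34), Acat2, Mvd, Acss2 and Scd2 were called higher on equal sums, beside Mvk. The lower calls of Msmo1 (-0.66) and Srebf2 (-0.78) ended there, as they did on equal protein-coding sums (-0.77 and -0.89).

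**Figure D4:**
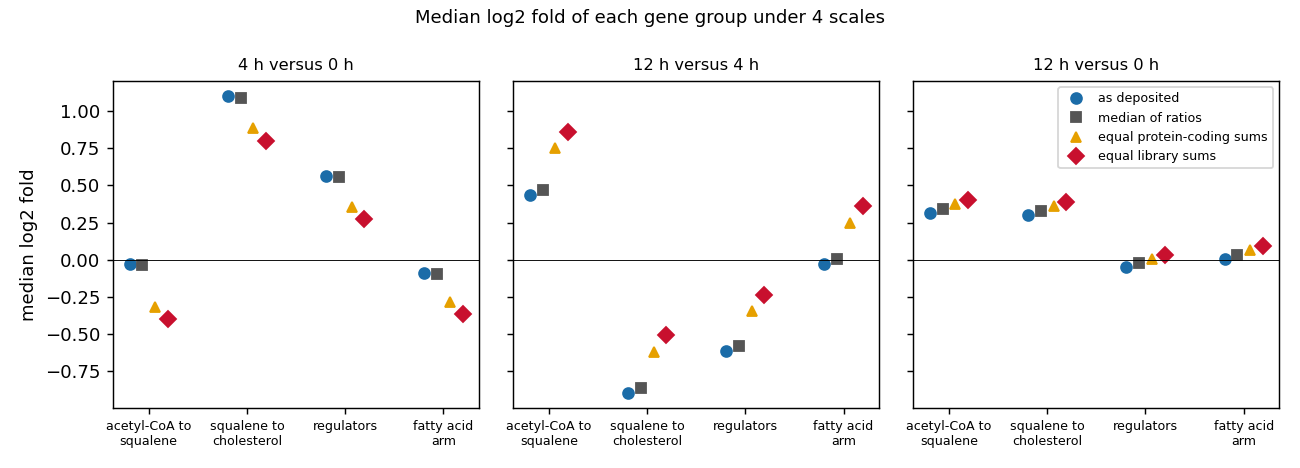
Median log2 fold of the 4 gene groups in each comparison as deposited, with median-of-ratios scaling, and with equal protein-coding or equal library sums. The late sterol group is above the other 3 groups at 4 h on each scale (1.10 as deposited, 0.80 on equal library sums), and the sign of the regulators at 12 h versus 0 h changes with the scale. The order of the groups could hardly change, because scaling multiplies all genes of a library alike.

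Genes around the pathway were read from lists by role. Of 86 further genes in 7 lists, 81 were measured from 0 h to 4 h, with 7 higher (8.64%), 5 lower (6.17%) and a median of -0.03. These shares are near those of all genes tested, 10.2% and 7.03%. Among 8 genes of SREBP cleavage and turnover none was called at 4 h, and Paqr3, which tethers SCAP to the Golgi, was called higher from 4 h (0.565 FPKM) to 12 h (2.71). The Paqr3 intervals overlapped (0 to 1.61 at 4 h and 0.745 to 4.67 at 12 h). None of 12 further sterol and isoprenoid enzymes was called in any comparison. Of 17 measured genes of further fatty acid synthesis and elongation 4 were higher and 2 lower at 4 h. Acsl4, which activates polyunsaturated fatty acids such as arachidonate, was at 21.5, 307 and 44.4 FPKM, but its 4 h value consists wholly of isoform estimates that the deposited table marks as failed, so its calls involving 4 h are uncertain. It was the 1 gene of these lists called higher at 12 h against 0 h (1.01). The elongase Elovl4 was at 1.94, 8.50 and 1.02 FPKM. Acacb, the mitochondrial carboxylase, was at 9.85, 2.51 and 6.82 FPKM, and Mid1ip1, an activator of acetyl-CoA carboxylase, at 415, 193 and 136, lower at 4 h and at 12 h against 0 h (-1.10 and -1.60).

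In glycerolipid assembly 2 of 13 genes were higher at 4 h and none lower. Gpat3, an acyltransferase of the same step as Gpam, was at 1.93, 8.79 and 2.89 FPKM, opposite in direction to Gpam, and Dgat1, which makes triglyceride, was at 22.8, 64.0 and 25.1. The phosphatidate phosphatase Lpin1 was at 4.95, 3.52 and 8.69 FPKM and was called higher from 4 h to 12 h (1.10). None of 14 lipogenic transcription factors was called at 4 h, and Pparg was called lower from 4 h to 12 h (145 and 51.8 FPKM, log2 fold -1.46). Of 11 measured genes of NADPH and acetyl-CoA supply Acss1 was higher (1.37 and 3.86 FPKM), and Me2 (147 and 62.7) and Mpc1 (3.19 and 0.597) were lower. The Mpc1 intervals overlapped (1.33 to 5.05 at 0 h and 0 to 1.42 at 4 h). Of 6 further SREBP-responsive genes 1, the fatty acid binding protein Fabp5, was lower at 4 h (59.5 and 19.2 FPKM).

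Some markers of other cell types moved between libraries as well, and their part in the results was not tested. Of 6 measured adipocyte markers 1 was higher at 4 h (Retn, 2.56 and 79.8 FPKM) and 1 lower (Plin1, 2.17 and 0.0514). The list of 8 summed to 43.5, 144 and 78.5 FPKM; Adipoq was at 1.76, 0.812 and 2.34, and Lep was listed at 0 in the 4 h library. Surface epithelium markers were higher at 4 h in 4 of 8 cases (sums 65.2, 156 and 99.4 FPKM) and endothelial markers in 2 of 7 measured (17.9, 40.2 and 16.8). Leukocyte markers were higher in 1 of 7 (76.7, 119 and 111), smooth muscle markers in 1 of 5 (114, 173 and 169), and theca and stroma markers in 1 of 8 (Mgp). Of all genes tested 10.2% were higher and 7.03% lower at 4 h. In lists this short, 1 call is therefore not read as a change of the cell type. None of 9 oocyte markers was called at 4 h, and all 9 had log2 folds below 0. Erythroid markers summed to 1570, 992 and 967 FPKM. Of the 9 granulosa markers 1 was higher and 4 were lower at 4 h.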

How the data were processed

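Granulosa cell RNA was sequenced in 3 libraries, 1 per time. The library kit was Illumina's for mRNA, according to the labels' protocols; pooling of the mice, strand setting and read length are not given in the sources used here. The submitters' processing notes name CASAVA 1.8, TopHat2 2.1.1, Cufflinks 2.2.1 and mm10, without role or order. The authors deposited FPKM of 34535 RefSeq isoforms with a lower and an upper bound of unstated level, per the file headers; bounds of 12 estimates marked as failed, none in a member, were not used. With RefSeq accessions of GRCm38.p6 (the build called mm10) 33544 isoforms were matched to symbols and 194 more through GENCODE M21; 797 were left out. FPKM were summed per gene, and bounds combined as the root of summed squares, which assumes independent isoforms. Values of 0 may be failed estimates. Depth was read from genes with 1 isoform over 1000 bases, together with a length allowance of 200 bases. Both were set to give the largest share of values under 10 fragments that were whole to a tolerance of 0.1. That share was 70.9%, 70.0% and 71.7%. Chance gives 20% at 1 fixed setting, which is not the chance level of such a maximum.

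Log2 folds used FPKM + 1, which understates changes of low genes. The members and lists were chosen with earlier results of these data known. Every member is named; of the other lists, up to 4 genes called in any comparison with the largest folds. The call rule was tested on simulated data. Alternatives were pseudocounts, filters, 3 scalings, the main isoform, other thresholds and separate intervals. Python 3.11.15, pandas 2.3.3 and numpy 2.4.6 were used.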

Additional observations from a re-analysis of the deposited data

How the results depend on the processing

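No result reversed as a call. No paired analysis was possible because each time has 1 library, and leaving a library out removes the time. Of 824 single-gene log2 folds under the alternatives, 97 moved beyond the deposited intervals, 51 of them under equal library sums and 40 under equal protein-coding sums, and none of a called gene changed sign. Under equal library sums the median log2 fold at 4 h against 0 h was -0.17 in the sterol arm, where the sign changed from 0.13, and -0.36 in the fatty acid arm (-0.29 on protein-coding sums). From 4 h to 12 h these medians went from -0.01 to 0.49 (0.39 on protein-coding sums) and from -0.03 to 0.36 (0.25). The difference between the arms at 4 h against 0 h, 0.22, ran from 0.14 (pseudocount of 5 FPKM) to 0.38 (main isoform). From 4 h to 12 h it was 0.02, and ran from -0.13 (main isoform) to 0.14 (filter of at least 5 FPKM). The tolerance, the median interval half-width of single sterol genes, was 0.29 and 0.30. That was wider than the differences of 0.22 and 0.02 as deposited, though not wider than the 0.38 on the main isoform. Staying within the tolerance therefore could not show that a difference held. Scaling multiplies both arms alike and could hardly change the difference.

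Counts of sterol genes higher at 4 h went from 6 to 3 on equal library sums and 2 at a 4-fold threshold; the 1 lower gene became 0 with a pseudocount of 5 FPKM, at 4-fold, and with intervals apart. Fatty acid genes higher at 4 h went from 2 to 1 on equal library sums and at 4-fold, and lower from 2 to 0 at 4-fold. From 4 h to 12 h the 1 higher sterol gene became 2 with a pseudocount of 0.1 FPKM, median-of-ratios or protein-coding sums, 3 on library sums or at 1.5-fold, and 0 at 4-fold; the 4 lower became 3 on library or protein-coding sums (without Msmo1), 7 at 1.5-fold and 0 at 4-fold. The 0 higher fatty acid genes became 1 with a pseudocount of 0.1 FPKM, median-of-ratios or protein-coding sums, and 3 on library sums or at 1.5-fold; the 1 lower became 2 at 1.5-fold. From 0 h to 12 h a 1.5-fold threshold gave 4 sterol genes higher and 1 fatty acid gene higher and 3 lower, against 0 each. Calls over all genes depended on the threshold too: at 1.5-fold 2524 were higher and 2479 lower at 4 h, and at 4-fold 472 and 122. The cause of these shifts was not tested beyond the settings themselves. At this depth Idi1 and other values near 1 FPKM rest on few fragments.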

Other observations

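Several members have more than 1 deposited isoform, and the split between them differed over time. Of the Acly signal, the minor isoform was at 0.00401 FPKM at 0 h, 145 at 4 h (134 to 157) and 25.6 at 12 h (0 to 79.4), and the other at 71.1, 274 and 65.0. The minor isoform thus made up 34.6% of Acly at 4 h, and both isoforms were highest there; at 12 h its interval reaches 0. The minor Hmgcs1 isoform was at 0.00154, 14.2 and 2.71 FPKM, with a 4 h interval from 0 to 31.1. For Insig2, an isoform that was under 1 FPKM at 0 h and 12 h made up 47.0% of the gene at 4 h (11.6 FPKM, interval 0 to 36.3). The minor Pmvk isoform was at 5.39, 0.00144 and 11.1 FPKM, opposite in course to the other (18.0, 24.9 and 21.7). Scap was mostly 1 isoform, at 147, 66.1 and 116 FPKM, while another was at 1.92, 7.34 and 2.30. Mvk (2 isoforms at 8.18, 4.45 and 5.54 and at 16.9, 7.28 and 25.3 FPKM) was lowest at 4 h in both. The minor isoform of Me1 was at 2.81, 11.2 and 12.4 FPKM, that of Fdps at 3.87, 9.33 and 4.82 and that of Mvd at 2.24, 0 and 0. Whether these splits reflect transcript choice or the division of shared reads was not tested.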
